A study of Mus musculus with 4 samples.

Results

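The genes described here are the receptors Notch1, Notch2 and Notch3, the ligands Jag1, Jag2 and Dll1, the DNA-binding factor Rbpj and the target genes Hes1, Hey1 and Heyl of the Notch pathway. They were taken by symbol from the array's probe annotation, keeping each row that names 1 gene only. This gave 11 rows for the 10 genes, of 28815 rows and 19935 named genes in all; Rbpj has 2 rows and every other gene has 1.

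The arrays hold RNA of hair follicle bulge stem cells, sorted on CD34 together with alpha6 integrin from mouse skin. The donors were CD-1 males of postnatal day 56, whose follicles rested in the second telogen. The 2 CSA samples came from mice injected intraperitoneally with 100 mg/kg CSA over 3 days, and the 2 vehicle samples from mice injected with the vehicle alone. CSA is not written out in the labels; in calcineurin research the abbreviation means cyclosporine A, a drug that blocks this phosphatase and keeps NFAT transcription factors in the cytoplasm. The labels name no altered allele, the drug was given to the whole animal and not to the skin alone, and the number of mice behind each sample is not given.

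Notch receptors are cut and activated when they meet a Jagged or Delta-like ligand on a neighbouring cell. The freed intracellular part enters the nucleus, binds Rbpj and switches on repressors of the Hes and Hey families. In skin the pathway is best known for moving basal keratinocytes into the spinous layer, where Hes1 is a target, and it also takes part in the differentiation of hair follicle cells. In vessels, Notch3 and Heyl are typical of the mural cells around the endothelium, and Notch4 and Dll4 of the endothelium itself.

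Each row of the deposited table had been centred on an unknown baseline before deposit, on a log scale taken as log2. A value is a distance from that baseline and not an abundance, so the order of the genes by expression cannot be read from it, nor whether a row was above background. Array medians lay between -0.02 and 0.06, the highest on vehicle replicate 1. The 12 bulge markers summed to 4.3 and 13.6 under CSA and to 10.9 and 15.3 under vehicle. Being distances from a baseline, these sums cannot tell whether the cells fitted their label. Cd34, an antigen the cells were sorted on, contributed between 1.75 and 4.25 to them. CSA replicate 1 was the lowest array for 9 of the 12. Cd34, Cd200 and Postn, 3 of the 12, were at least 1.5-fold lower in CSA without overlap, as were 564 of all 28815 rows. Their differences were -1.47, -0.80 and -0.79. Counted in either direction, the shares were 25% of the list and 5.57% of all rows. Of the 12 markers 9 were lower and 3 higher in CSA, with a median difference of -0.30. Without CSA replicate 1, 6 were lower and 6 higher, with a median of -0.03. Itga6, the alpha6 integrin gene, was 0.08 on vehicle replicate 2 and below its baseline on the other 3 arrays. The 9 markers of differentiated epidermis summed to between -8.24 and -6.48 on 3 arrays and to 6.05 on vehicle replicate 1. In bulk RNA fewer cells of a type and less RNA per cell cannot be told apart.

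For none of the 10 genes did the difference between CSA and vehicle pass the test against the spread of the arrays. Of the 11 rows 8 were lower in CSA (72.7%, against 57.9% of all rows) and 3 higher, with a median difference of -0.17 against -0.04 for all rows. limma called 0 of the 11 at an adjusted p under 0.05, as it called 0% of all 28815 rows (adjusted p = 0.9999 for each of the 11). In this fit 0 of the 11 had an unadjusted p under 0.05, which 2.93% of all rows reached. The CSA and vehicle arrays did not overlap for Jag1 and Jag2, 2 of the 11 rows (18.2%), against 26.6% of all rows. Both were lower in CSA, which held for 15.2% of all rows. With a distance of at least 1.5-fold required in addition, 0 of the 11 remained, against 5.57% of all rows. With 2 arrays against 2, an exact permutation test cannot go below p = 0.333, so none is given for single genes.

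**Figure D1:**
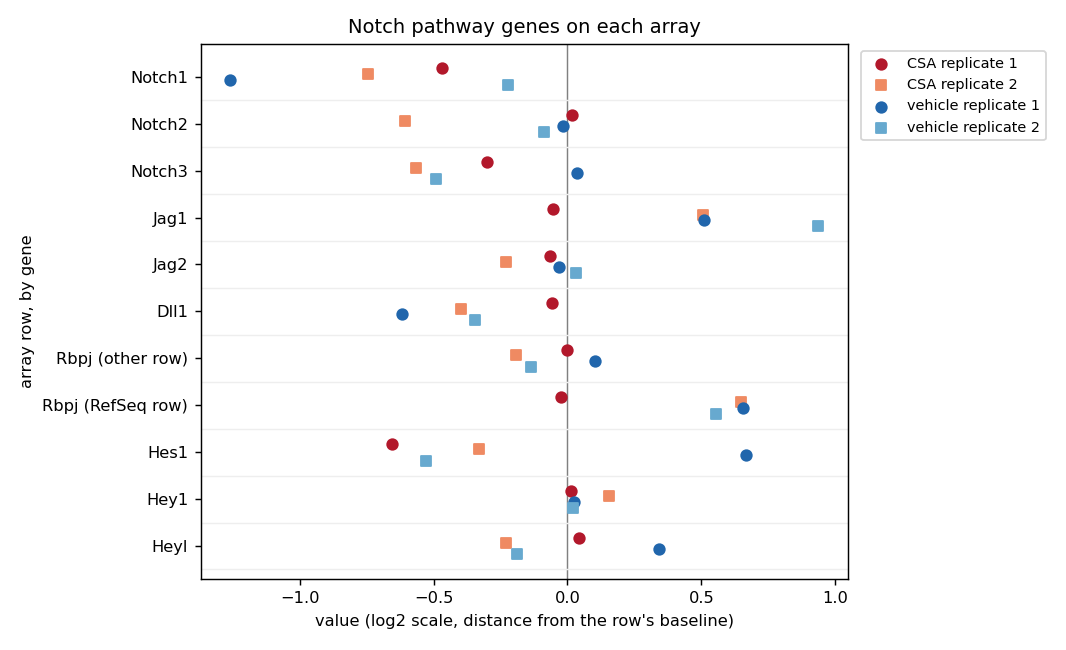
The plot gives each row's value (horizontal axis, log2 scale, distance from that row's unknown baseline) on each of the 4 arrays, with 1 line per row; circles are replicate 1 and squares replicate 2, red for CSA and blue for vehicle. Red and blue points overlap in 9 of the 11 rows, Hes1 has 1 point apart from the others (vehicle replicate 1), and Hey1 spans the least.

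Jag1, a Jagged ligand, stood at -0.05 and 0.505 under CSA and at 0.508 and 0.94 under vehicle. Both vehicle arrays were thus above both CSA arrays, but CSA replicate 2 and vehicle replicate 1 were almost level. The difference was -0.50 ± 0.29 (± is limma's moderated standard error throughout, from 2 arrays in each group), with a 95% interval from -1.30 to 0.30. The difference was -0.22 when CSA replicate 1, the lowest array, was left out and -0.78 when CSA replicate 2 was. It was negative whichever array was left out. The array order of Jag1 was also that of the bulge marker Cd34, at 1.75 and 3.60 under CSA and 4.05 and 4.25 under vehicle, and the part of the bulge markers in the Jag1 values was not tested.

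Jag2, the second Jagged ligand, was -0.07 and -0.23 under CSA and -0.03 and 0.03 under vehicle. The groups lay next to each other, and the difference was -0.15 ± 0.15 (interval -0.56 to 0.26). When each array was centred on its own median, the groups of both Jagged genes overlapped, while 29.1% of all rows were apart. After quantile normalization both Jagged genes stayed apart, and so did the RefSeq row of Rbpj. These were 3 rows in all, each lower in CSA (28.9% of all rows were then apart). The separation therefore depended on how the arrays were scaled. The Jag1 difference itself was -0.47 after median centring and -0.54 after quantile normalization.

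Dll1, a Delta-like ligand, was -0.06 and -0.40 under CSA and -0.62 and -0.34 under vehicle. CSA replicate 1 was highest, vehicle replicate 1 lowest and the others lay between, so the groups overlapped. The difference of 0.25 ± 0.20 (interval -0.32 to 0.83) went the other way from those of the Jagged genes. The differences between the ligands were not tested.

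The promoters of both Jagged genes are shown because they were the members whose arrays did not overlap, and because calcineurin, which cyclosporine A blocks, activates NFAT. The stretches are the 250 bases before the RefSeq start (build GRCm38.p6), chr2:137116521-137116770 on the minus strand for Jag1 and chr12:112929496-112929745 on the minus strand for Jag2. Capitals mark the NFAT core letters GGAAA on either strand; the Rbpj letters GTGGGAA were searched as well and would also be in capitals.
Jag1: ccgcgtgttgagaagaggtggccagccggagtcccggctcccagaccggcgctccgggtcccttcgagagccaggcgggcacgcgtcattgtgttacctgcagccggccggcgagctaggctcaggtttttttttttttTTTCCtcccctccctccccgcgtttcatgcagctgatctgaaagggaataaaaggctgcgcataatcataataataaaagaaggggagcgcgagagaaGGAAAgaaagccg
Jag2: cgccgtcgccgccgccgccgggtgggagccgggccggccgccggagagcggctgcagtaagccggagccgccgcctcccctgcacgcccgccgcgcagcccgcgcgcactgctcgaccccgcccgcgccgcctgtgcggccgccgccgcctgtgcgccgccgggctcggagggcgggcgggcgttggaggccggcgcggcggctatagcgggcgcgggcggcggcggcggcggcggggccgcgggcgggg
The Jag1 stretch holds the NFAT letters at 2 places, 111 bases before the start on the reverse strand and 13 bases before it on the forward strand, and the Jag2 stretch, with 87.2% G and C, holds none. Of all 32851 promoter stretches of this length from RefSeq 55.6% hold GGAAA and 5.42% hold GTGGGAA, and the 2 motifs share bases where GTGGGAA is followed by a further A. Of the 10 genes, 7 had an entry, with 9 starts in all; Hes1, Hey1 and Heyl had none. GGAAA was found before 4 of the 9 starts, those of Jag1, Notch2 and both of Rbpj, whose stretches overlap, and GTGGGAA before 0 of 9. These matches describe the letters of a window and say nothing of binding.

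Among the receptors, Notch1, the main Notch receptor of keratinocytes, was below its baseline on all 4 arrays. The ligand Dll1 was too, as were 3.33% of all rows, and with an unknown baseline this does not show low expression. Notch1 was -0.47 and -0.75 under CSA and -1.26 and -0.22 under vehicle, so that both CSA arrays lay between the vehicle arrays. The difference of 0.13 ± 0.41 had an interval from -1.01 to 1.28. Its sign was not settled: the difference was -0.13 after quantile normalization, -0.38 without vehicle replicate 1 and 0.65 without vehicle replicate 2.

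Notch2, which keratinocytes also express, was 0.02 and -0.60 under CSA and -0.02 and -0.09 under vehicle. CSA replicate 2 alone was low, and the other 3 arrays lay close together. The difference of -0.24 ± 0.26 (interval -0.97 to 0.49) was 0.07 without that array.

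Notch3 was -0.30 and -0.57 under CSA and 0.04 and -0.49 under vehicle. Vehicle replicate 1 was the high array, and vehicle replicate 2 lay between both CSA arrays. The difference was -0.21 ± 0.25 (interval -0.91 to 0.50), and 0.06 without vehicle replicate 1.

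The 2 rows of Rbpj, the factor that carries the Notch signal to DNA, did not show the same pattern. The row annotated with the RefSeq transcripts was -0.023 and 0.649 under CSA and 0.655 and 0.554 under vehicle. CSA replicate 1 was low there and the other 3 arrays were level, and without it the difference of -0.29 ± 0.28 (interval -1.07 to 0.49) became 0.04. The row annotated with 1 GenBank entry alone was -0.002 and -0.19 under CSA and 0.10 and -0.14 under vehicle. Its values alternated between the groups, and the difference was -0.08 ± 0.17 (interval -0.56 to 0.40). What transcript the latter row measures is not known from the annotation.

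Hes1, a repressor that Notch induces directly, varied most of the 11 rows, with a standard deviation over the 4 arrays above that of 90.0% of all rows. It was -0.65 and -0.33 under CSA and 0.67 and -0.53 under vehicle. Vehicle replicate 1 stood apart, and vehicle replicate 2 lay between the CSA arrays. The difference of -0.56 ± 0.46 (interval -1.87 to 0.74) was the largest of the 11 in size. Leaving out vehicle replicate 1 gave 0.04, and leaving out vehicle replicate 2 gave -1.16 (limma adjusted p = 0.596).

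Hey1, a target repressor of the Hey family, was 0.02 and 0.16 under CSA and 0.02 and 0.02 under vehicle. It varied least of the 11, with a standard deviation above that of 10.3% of all rows, and its difference was 0.06 ± 0.14 (interval -0.34 to 0.46). These values do not separate a steady level from a signal near background.

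Heyl, another member of the Hey family, was 0.04 and -0.23 under CSA and 0.34 and -0.19 under vehicle. As for Notch3, vehicle replicate 1 was highest and the other vehicle array lay between both CSA arrays. The difference was -0.17 ± 0.25 (interval -0.87 to 0.54), and 0.10 without vehicle replicate 1. The 3 targets therefore gave 2 negative differences and 1 positive, all with overlapping arrays.

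The intervals show what these arrays could resolve. For 7 of the 11 rows the whole 95% interval lay within a 2-fold change in either direction, and for Jag2, Hey1 and the Rbpj row without RefSeq transcripts, 3 rows, within 1.5-fold. For the 4 rows of Notch1, Jag1, Hes1 and the RefSeq row of Rbpj, changes beyond 2-fold in at least 1 direction lay inside the interval. In 8 of the rows the sign of the difference turned when 1 of the arrays was left out.

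**Figure D2:**
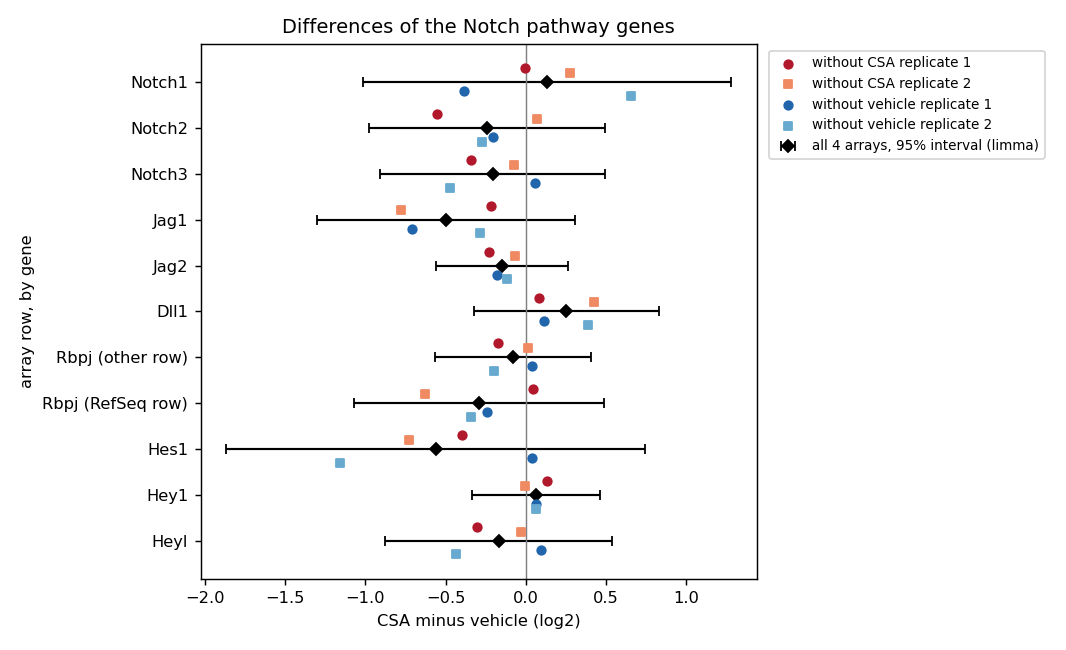
The plot gives the CSA minus vehicle difference of each row (horizontal axis, log2) with limma's 95% interval as a bar around the black diamond, and the difference when 1 array is left out as coloured points. Every bar crosses 0; for Hes1 the points reach from -1.16 to 0.04, while those of Jag1, Jag2 and Dll1 stay on 1 side of 0.

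Vehicle replicate 1 was the highest array for 5 of the 11 rows, Notch3, both Rbpj rows, Hes1 and Heyl (45.5%, against 43.9% of all rows). Vehicle replicate 2 was the lowest for 0 of the 11, against 25.7% of all rows. The median of the 11 rows was -0.05 and -0.23 under CSA and 0.04 and -0.14 under vehicle. The median difference stayed negative without CSA replicate 1 (-0.22), CSA replicate 2 (-0.03) or vehicle replicate 2 (-0.28). Without vehicle replicate 1 it was 0.04, with 6 rows higher and 5 lower in CSA. On that array 8 of 9 markers of differentiated epidermis, 9 of 10 endothelial, 7 of 7 immune, 5 of 7 fibroblast and 5 of 10 mural cell markers had their highest value, but 1 of 7 rows of melanocyte markers and 1 of 12 bulge markers.

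The marker lists of other cell types had their highest sums on vehicle replicate 1, where Hes1, Notch3 and Heyl were also highest. That array had the highest median over all rows too (0.06), and the sums were not corrected for it. The differentiated epidermis list summed to -8.24 and -6.69 under CSA and to 6.05 and -6.48 under vehicle; the spinous keratin gene Krt1 was 0.10 on vehicle replicate 1 and between -2.72 and -2.15 elsewhere. The 10 mural cell markers summed to 0.82 and -1.37 under CSA and to 2.16 and 0.47 under vehicle. The 10 endothelial markers summed to -0.03 and -1.29 under CSA and to 2.17 and -0.08 under vehicle, with the vessel gene Egfl7 at 0.61 on vehicle replicate 1. Fibroblast markers (7 rows) summed to between -1.02 and 0.82, immune markers (7 rows) to between -1.15 and 0.90 and melanocyte markers (7 rows) to between 1.17 and 2.62. The highest sum of each of these lists was again on vehicle replicate 1. As the values are centred, no marker can be said to be absent, and the part of these cells in the Notch gene values was not tested.

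**Figure D3:**
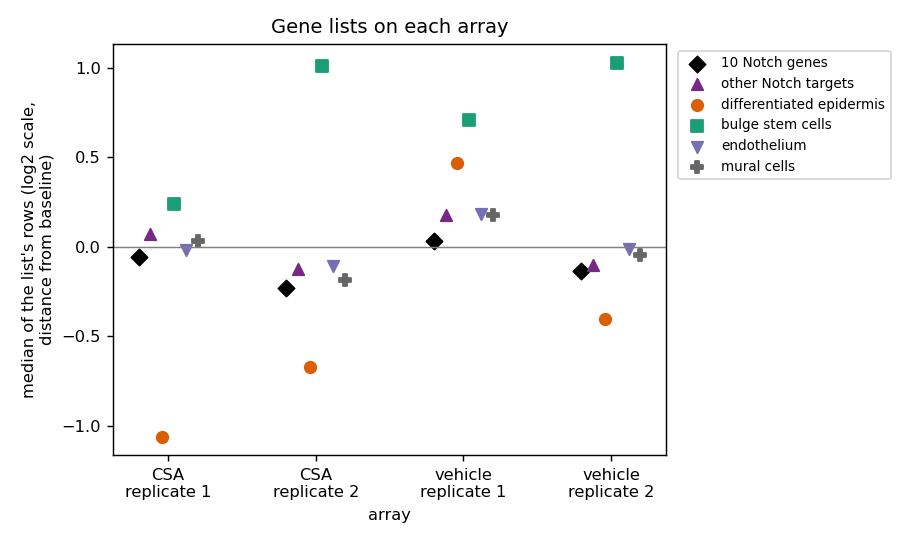
The plot gives the median value of each gene list (vertical axis, log2 scale, distance from baseline) on each of the 4 arrays along the horizontal axis. The 10 Notch genes (diamonds) range from -0.23 to 0.04, while the differentiated epidermis markers (circles) lie at -1.06, -0.67 and -0.40 on 3 arrays and at 0.47 on vehicle replicate 1.

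The rest of the pathway was followed through 6 further lists with 65 rows of 59 genes. Over these 29 rows were higher and 36 lower in CSA, with a median of -0.02. limma called 0 of the 65 and gave 1 at an unadjusted p under 0.05; 14 had groups that did not overlap (21.5%), and 2 were in addition 1.5-fold apart (3.08%), both below the shares over all rows given above.

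Both of those rows belong to the proteases that cut the receptor. Aph1b, a subunit of gamma-secretase, was -0.03 and 0.03 under CSA and 0.67 and 0.57 under vehicle. Its difference of -0.62 ± 0.14 (interval -1.01 to -0.23) stayed between -0.67 and -0.57 whichever array was left out, yet its limma adjusted p was 0.9999. Aph1c, its close paralogue, was -0.09 and 0.03 under CSA and 0.62 and 0.27 under vehicle, a difference of -0.47 ± 0.19; as the genes are near copies, their rows may share signal. The third paralogue, Aph1a, had 2 rows that differed by 0.42 and 0.41, with overlapping groups.

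Adam17, a protease that can cut the receptor's outer part, was -1.203 and -0.267 under CSA and -0.254 and 0.552 under vehicle. The inner arrays of both groups nearly touched, and the difference was -0.88 ± 0.46 (interval -2.18 to 0.42). When arrays were centred on their medians, the groups overlapped. Adam10, the main such protease for ligand-activated receptors, was -1.28 and 0.05 under CSA and -1.26 and -0.17 under vehicle. Both arrays numbered 1 were low and both numbered 2 were near 0, and the CSA difference was 0.10 ± 0.63. Of the 11 rows in this list 6 were higher and 5 lower (median 0.10), but Aph1a and Psenen each count there with 2 nearly equal rows; with 1 row per gene 4 were higher and 5 lower (median -0.02). Psenen, a further gamma-secretase subunit, had 2 rows at 0.52 and 0.54 with overlapping groups.

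All 5 glycosyltransferase genes, whose enzymes add sugars to the receptors, had negative differences, with a median of -0.16, where 57.9% of all rows were lower. Without CSA replicate 1, CSA replicate 2 or vehicle replicate 2, 1 of the 5 was higher. Lfng, the Fringe enzyme that shifts receptors towards Delta-like ligands, was 0.08 and 0.12 under CSA and 0.37 and 0.30 under vehicle. Pofut1, which adds the first fucose, was -0.07 and 0.06 under CSA and 0.28 and 0.22 under vehicle. In these genes the groups were apart by more than the spread within them, with differences of -0.24 ± 0.14 and -0.26 ± 0.14 and intervals that included 0 (-0.62 to 0.15 and -0.65 to 0.14). Neither passed (limma adjusted p = 0.9999).

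Of 8 other receptors and ligand-like genes 6 were lower (75%, against 57.9% of all rows). Groups were apart for 0 of the 8, against 26.6% of all rows. Notch4 was 0.15 and -0.38 under CSA and 0.37 and -0.09 under vehicle (-0.26 ± 0.28), and Dll4 was 0.31 and -0.13 against 0.40 and -0.09 (-0.06 ± 0.27). Both arrays numbered 1 were above both numbered 2 for these genes of the endothelium. Dll3 differed by 0.006 ± 0.15, and Dlk1, a Delta-like protein that is not a classical ligand, by -0.30 ± 0.25.

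Genes of endocytosis and ubiquitin transfer were split, 9 rows higher and 6 lower, with a median of 0.04. Numb, an inhibitor of Notch, was -0.11 and 0.07 under CSA but -1.17 and 1.05 under vehicle, so that the vehicle arrays enclosed both CSA arrays and its difference of 0.04 ± 0.81 was far smaller than its error. Dtx3l, a ubiquitin ligase of the Deltex family, differed by -0.40 ± 0.26. The nuclear cofactors were split too, 10 rows higher and 7 lower, with a median of 0.01. Maml1, the coactivator that joins the Rbpj complex, was 1.05 and -0.16 under CSA and -0.19 and 0.31 under vehicle, a difference of 0.39 ± 0.49 that was -0.22 without CSA replicate 1. The corepressor gene Ctbp1 differed by -0.39 ± 0.25.

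Of 9 genes on the list of other targets 7 were lower (77.8%, against 57.9% of all rows) and 2 higher, with a median of -0.13. The list is not limited to genes that Notch induces, so this count is not a measure of Notch output. Nrarp, a feedback inhibitor that Notch induces, was -0.48 and -0.44 under CSA and 0.21 and -0.45 under vehicle. Like Hes1 it was high on vehicle replicate 1 alone, and its difference of -0.34 ± 0.27 was -0.007 without that array. Hes5 was 0.05 and -0.41 under CSA and 0.27 and -0.26 under vehicle (-0.18 ± 0.28). Hey2 was 0.19 and 0.05 under CSA and 0.005 and -0.005 under vehicle, a difference of 0.12 ± 0.14 in the same direction as Hey1. The list's median turned to 0.10 without vehicle replicate 1 and to 0.05 without CSA replicate 2, in each case with 6 of 9 rows higher in CSA.

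**Figure D4:**
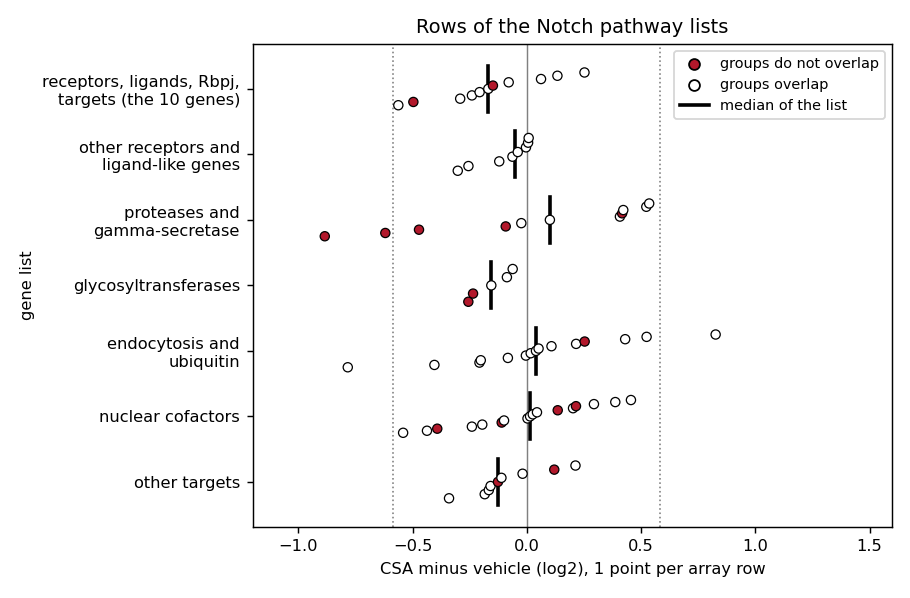
The plot gives the CSA minus vehicle difference (horizontal axis, log2) of every row in 7 lists, 1 point per row, filled red where the CSA and vehicle arrays do not overlap; black bars are list medians and dotted lines mark 1.5-fold. The only red points beyond a dotted line are Adam17 (-0.88) and Aph1b (-0.62).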

How the data were processed

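Each of the 4 samples was hybridised to 1 array; 20 ng of its total RNA had been amplified in 1 round into biotin-labelled cDNA, per the labels' protocols. The authors deposited log2-like values in a series matrix, each row centred on an unstated baseline; the log base was taken as 2. Not given in the sources used here: array software, background correction, normalization. Build mm8 is named in the submitters' processing notes. Precision is limited by the number of arrays.

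The platform annotation served to name rows: 21780 named 1 gene, 1605 several and 5430 none. limma 3.58.1 (R 4.3.3; lmFit, eBayes without a trend, two-sided) was fitted to all 28815 rows as deposited, with Benjamini-Hochberg adjustment over all of them. It was tested on simulated data. Groups and replicate numbers came from the titles; the design text calls replicates biological. The 10 genes, the pathway and marker lists and the fit without a trend were chosen with earlier results of these data known. Some genes of the pathway lists are not reported here. Named pathway genes were a set of 11 symbols, the row with the smallest p of each list, and every row 1.5-fold apart without overlap; Aph1a, Aph1c and Psenen were added after their values were seen. Of each marker list up to 3 rows could be named, and Itga6 was added. The alternatives were quantile normalization, median centring, a trend, 1 row per gene, a filter on the mean, the replicate number as a block, and each array left out.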

Additional observations from a re-analysis of the deposited data

How the results depend on the processing

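limma called 0 rows under each of the 10 alternatives (smallest adjusted p 0.591). The count of rows at an unadjusted p under 0.05 was 845, and 1366 with the replicate number as a block; with 1 array left out it ran from 687 to 2146. The number is not known to pair the samples (the deviations of same-numbered arrays correlated at 0.216 over rows). Over all rows the values of the CSA replicates correlated at 0.06 and those of the vehicle replicates at 0.168. Same-numbered arrays correlated at 0.103 for number 1 and at 0.516 for number 2. Arrays of the same treatment thus resembled each other less than CSA replicate 2 and vehicle replicate 2 did, and why was not tested. The block changed no adjusted call. Among the Notch genes limma gave an unadjusted p under 0.05 for Jag1 with the block (adjusted p = 0.868) and for Hes1 without vehicle replicate 2 (adjusted p = 0.596), and for no other of their rows under any alternative. The count of rows 1.5-fold apart without overlap was 1606, and 889 among rows at or above the 25th percentile of the mean, where fewer rows are counted; with 1 array left out it ran from 2184 to 4553, since 1 array against 2 overlaps less often. The same count ran from 0 to 3 for the Notch genes (Hes1, Jag1 and the RefSeq row of Rbpj without CSA replicate 2; Jag1 without vehicle replicate 1; Hes1 and Notch1 without vehicle replicate 2). For the other pathway rows it ran from 3 to 18, and it was 1 with arrays centred on their medians and 1 after the filter on the mean. That filter drops the 25% of all rows with the lowest mean, and 5 of the 11 Notch rows passed it. As the rows are centred, this mean is a distance from the baseline and not an expression level.

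Jag1, Jag2 and Dll1 kept their direction under every alternative that kept their row. Quantile normalization turned Notch1 (-0.134) and Numb (-0.11). With 1 array left out, the differences ran from -1.16 to 0.0355 for Hes1, -0.47 to 0.0575 for Notch3, -0.38 to 0.65 for Notch1, -0.55 to 0.0712 for Notch2, -0.00792 to 0.13 for Hey1, -0.43 to 0.10 for Heyl, -0.63 to 0.0443 for the RefSeq row of Rbpj and -0.20 to 0.0405 for its other row. The ranges were -0.22 to 0.99 for Maml1, -1.07 to 1.15 for Numb, -0.52 to 0.0077 for Notch4, -0.30 to 0.18 for Dll4, -0.45 to 0.078 for Hes5, -0.091 to 0.10 for Dll3 and -0.57 to 0.77 for Adam10. Where 1 array is left in a group, it is assumed to vary like the other group; why signs turned was not tested.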
